A study of Mus musculus with 16 samples.

Results

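The choroid plexus epithelial genes Ttr, Kl, Folr1, Clic6, Otx2, Aqp1, Cldn2, Slc4a5, Mfrp and Tmem72 were followed across 16 cortical RNA-seq libraries. These 10 genes are named markers of that epithelium and were taken by symbol from a table of 47593 genes. They were selected on their levels in these same libraries and on the contrast of diets. Their levels, their co-variation and their diet difference are therefore a description. Where calls of the 10 genes for diet are counted below, they come from the fit over all genes and are no independent evidence about these genes. In male vehicle 4 their summed level was 2023 CPM (read pairs per 1000000 counted in the library, scaled between libraries), against 14.8 to 332 CPM in the other 15 libraries. With that library left out, the summed level of the rapamycin libraries rose from 0.228 to 0.656 times that of the vehicle libraries. With all libraries 5 of the 10 genes were called lower with rapamycin, beside 1.57% of the 16553 genes tested. Without male vehicle 4 it was 0 of the 10, beside 1.28% of 16813 genes.

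The mice were heterozygous 5xFAD animals on a C57BL/6-SJL hybrid background, which carry mutant human transgenes driven by the neuronal Thy1 promoter and develop amyloid plaques. All groups carried the transgenes, so no comparison here is with mice that lack them. Females and males received a diet with microencapsulated rapamycin, an inhibitor of the kinase mTOR, or a vehicle diet with the carrier alone, from 2 to 5 months of age, and cortex was taken at 5 months. Each sex and diet had 4 libraries. The labels call them biological replicates. In the study's text mice are counted per group, but pooled cortical samples are also mentioned, so whether each library is a single mouse was not settled here. If they share mice, the p-values measure only the spread between libraries.

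The choroid plexus is a fold of vascular tissue in the brain ventricles. Its epithelium makes cerebrospinal fluid, moving ions and water from fenestrated capillaries into the ventricle, and forms the barrier between blood and that fluid. It also secretes carrier and hormone-like proteins, of which transthyretin is the best known. The cortex itself holds no choroid plexus, although the ventricle and its plexus lie next to it in the dissected brain. In bulk tissue, fewer cells of a type and less RNA in each cell cannot be told apart.

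Each library held 16393501 to 20593089 counted read pairs. By their labels 11 libraries belong to batch 1. Batch 2 holds 5, from females number 4 with vehicle and numbers 4 and 5 with rapamycin, and from males number 4 of each diet. The library labelled male rapamycin 4 went against its label, with 9935 Xist read pairs and 0 read pairs of Y-linked genes, whereas the other 7 male libraries had 1 to 17 Xist and 1915 to 2231 Y-linked read pairs. It is called by its label below, and results are also given without it. In all libraries 8 markers of cortical glutamatergic neurons summed to 1726 to 2942 CPM, which goes with the tissue label. Male vehicle 4 lay within that range, at 2475 CPM. The largest part of the sum was Slc17a7, at 1060 to 2410 CPM outside male vehicle 4. This sum does not show how much tissue from outside the cortex was included.

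Short stretches upstream of Mfrp and Cldn2 are shown because these genes had 2 of the 3 largest diet differences and bear recognizable promoter letters. RefSeq promoter windows (GRCm38.p6) were found for 7 of the 10 genes, namely Kl, Otx2, Aqp1, Cldn2, Slc4a5, Mfrp and Tmem72, and were searched over the 250 bases before each start on both strands. The letters TAATCC are a site type bound by OTX homeodomain factors and are read as GGATTA on the other strand. The 7 genes had 10 windows, and 2 of these, of Otx2 and Mfrp, held these letters, beside 6.25% of all 32851 windows. The letters TATAAA are those of the core promoter box that binds TBP and are read as TTTATA on the other strand. They occurred in windows of 3 of the 7 genes, Otx2, Cldn2 and Slc4a5, and in 12.4% of all windows. The first count is by gene, and a gene with several windows has more chances of a match, so these shares are not like for like. The 2 motifs share no position. In the sequences the matched letters are in capitals, 134 bases before the start used by the Mfrp window and 35 bases before that used by the Cldn2 window. These starts differ from the gene starts given below. Bases in annotated exons were left out of the sequences. The first lies at chr9:44101520-44101728 and the second at chrX:139800558-139800807, both on the plus strand. A match describes the sequence only, and binding was not measured.
Mfrp: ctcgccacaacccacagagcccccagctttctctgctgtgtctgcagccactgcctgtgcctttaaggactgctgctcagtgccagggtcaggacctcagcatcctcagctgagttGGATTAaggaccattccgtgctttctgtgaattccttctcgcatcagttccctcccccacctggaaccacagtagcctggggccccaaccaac
Cldn2: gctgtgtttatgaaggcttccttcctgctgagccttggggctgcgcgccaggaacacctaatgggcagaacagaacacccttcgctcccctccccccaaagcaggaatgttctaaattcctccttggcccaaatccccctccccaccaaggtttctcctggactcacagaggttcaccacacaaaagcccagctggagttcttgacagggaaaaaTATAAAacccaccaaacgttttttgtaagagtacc

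Among the carriers and hormone-like proteins, Ttr encodes transthyretin, the thyroid hormone and retinol-binding protein carrier of cerebrospinal fluid. It was by far the most abundant of the 10, with a median of 74.5 RPKM (CPM per kilobase of exon) over the 16 libraries. In female vehicle libraries 1 to 4 Ttr was 115, 293, 30.3 and 5.47 CPM, and in female rapamycin libraries 1, 2, 4 and 5 it was 29.1, 94.4, 20.96 and 87.2 CPM. In male vehicle libraries 1 to 4 it was 17.7, 140, 144 and 1736 CPM, and in those labelled male rapamycin 1 to 4 it was 102, 19.4, 21.5 and 166 CPM. Female vehicle 4 was the lowest and male vehicle 4 the highest of all libraries, and both are vehicle libraries of batch 2, so the diets overlapped over their whole range except for male vehicle 4 and female vehicle 2 at the top and female vehicle 4 and male vehicle 1 at the bottom.

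Kl encodes Klotho, which is shed into cerebrospinal fluid and acts as a co-receptor for FGF23. It lies on chromosome 5 at 150952607 to 150993817 (GRCm38, plus strand). Kl was 10.8, 14.2, 6.20 and 4.93 CPM in female vehicle libraries 1 to 4 and 6.73, 3.15, 5.09 and 9.46 CPM in female rapamycin libraries 1, 2, 4 and 5. It was 3.03, 9.61, 11.6 and 96.7 CPM in male vehicle libraries 1 to 4 and 8.87, 2.19, 6.27 and 11.7 CPM in those labelled male rapamycin. With male vehicle 4 set aside, the vehicle libraries spanned 3.03 to 14.2 CPM and the rapamycin libraries 2.19 to 11.7 CPM. Folr1, the folate receptor that carries folate across this epithelium (chromosome 7, 101858331 to 101870788, minus strand), was 15.8 CPM in male vehicle 4. It ranged from 0.120 to 3.00 CPM in the other 15 libraries, and in 6 of the 16 it rested on fewer than 10 read pairs.

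The transporters and channels move the ions and water of the fluid. Aqp1, the apical water channel (chromosome 6, 55336432 to 55348555, plus strand), was 1.61, 2.26, 0.707 and 0.421 CPM in female vehicle libraries 1 to 4 and 0.918, 0.435, 1.22 and 1.03 CPM in female rapamycin libraries 1, 2, 4 and 5. In males it was 1.19, 0.901, 1.27 and 20.5 CPM with vehicle and 0.858, 0.356, 0.422 and 2.06 CPM in the libraries labelled rapamycin. Among the 15 other libraries the range was 6.36 times from the lowest to the highest, and male vehicle 4 lay 9.05 times above the highest of them.

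Slc4a5 encodes the sodium bicarbonate cotransporter NBCe2 (chromosome 6, 83219828 to 83304945, plus strand). It was 1.17, 2.49, 0.272 and 0.361 CPM in female vehicle libraries 1 to 4 and 0.204, 0.816, 0.664 and 0.720 CPM in female rapamycin libraries 1, 2, 4 and 5. It was 0.238, 1.25, 1.90 and 23.6 CPM in male vehicle libraries and 0.515, 0.474, 0.483 and 1.49 CPM in those labelled male rapamycin. Of the 8 rapamycin libraries, 1 lay above the vehicle median without male vehicle 4 (1.17 CPM), the library labelled male rapamycin 4. Clic6, a chloride intracellular channel family member (chromosome 16, 92485736 to 92541243, plus strand), reached 51.1 CPM in male vehicle 4. It spanned 1.19 to 6.84 CPM in the other vehicle libraries (median 3.90) and 1.36 to 6.33 CPM in the rapamycin libraries (median 3.97).

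Cldn2, a tight junction claudin that makes pores for cations and water in leaky epithelia (X chromosome, 139800828 to 139811386, plus strand), was rare. It was 0.586, 1.19, 0.0544 and 0.180 CPM in female vehicle libraries 1 to 4 and 0.0510, 0.272, 0.111 and 0.514 CPM in female rapamycin libraries 1, 2, 4 and 5. It was 0.357, 1.45, 0.865 and 11.02 CPM in male vehicle libraries and 0.572, 0.119, 0.181 and 0.824 CPM in those labelled male rapamycin. In 8 of the 16 libraries these values rested on fewer than 10 read pairs, and in female vehicle 3 and female rapamycin 1 on 1 read pair each, so low values have wide counting errors. Otx2, the homeodomain transcription factor that maintains choroid plexus identity (chromosome 14, 48657679 to 48667644, minus strand), stood out least in male vehicle 4. It was 9.45 CPM there, 3.48 times the next library, and 0.296 to 2.71 CPM elsewhere.

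Mfrp, a membrane frizzled-related protein best known from the retinal pigment epithelium (chromosome 9, 44101729 to 44109187, plus strand), was 1.03, 2.71, 0.109 and 0.721 CPM in female vehicle libraries 1 to 4. It was 0.0510, 0.0544, 0.774 and 0.308 CPM in female rapamycin libraries 1, 2, 4 and 5. In males it was 0.238, 1.501, 2.19 and 28.1 CPM with vehicle and 0.744, 0.237, 0.181 and 1.18 CPM in the libraries labelled rapamycin. The 2 lowest libraries of all were female rapamycin 1 and 2, with 1 read pair each, and the diets overlapped from 0.109 to 1.18 CPM. Of the exon bases of Mfrp, 36.7% are shared with C1qtnf5 on the same strand and 16.8% with Gm20444 on the opposite strand. The counting used no strand and left out read pairs in several genes, so Mfrp may be undercounted.

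Tmem72, a transmembrane protein (chromosome 6, 116679063 to 116716913, minus strand), had the lowest median at 0.0268 RPKM. It was 0.391, 3.05, 0.381 and 0.240 CPM in female vehicle libraries 1 to 4 and 0.408, 0.326, 0.553 and 0.514 CPM in female rapamycin libraries 1, 2, 4 and 5. It was 0, 0.851, 0.807 and 30.9 CPM in male vehicle libraries and 0.801, 0.0593, 0.181 and 1.24 CPM in those labelled male rapamycin. The 0 of male vehicle 1 was 0 of 16797945 read pairs, which allows up to 0.178 CPM (3 read pairs, counting error only). Female vehicle 2 lay apart from the other female vehicle libraries for this gene, and male vehicle 4 lay 10.1 times above female vehicle 2.

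**Figure D1:**
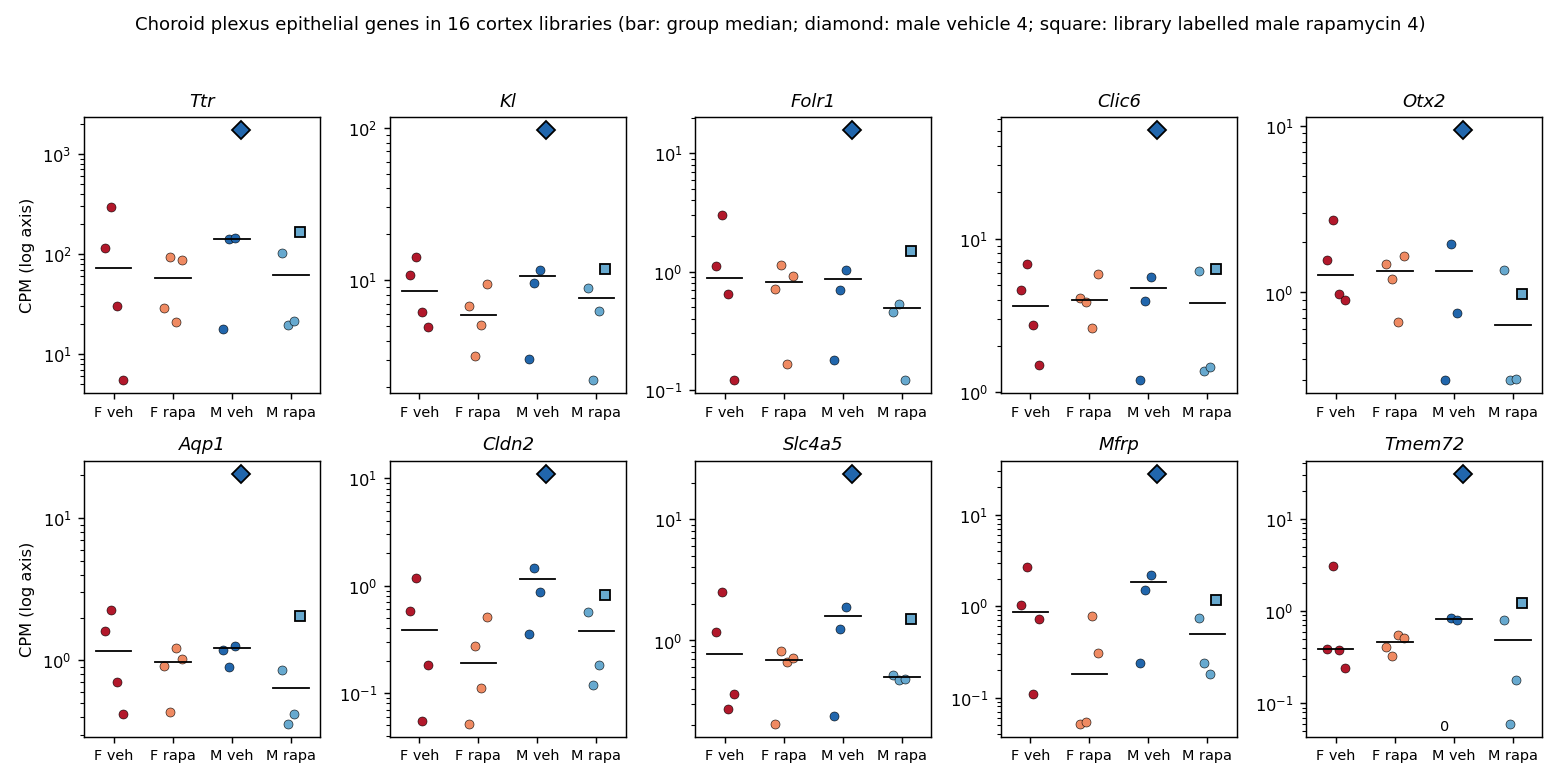
Level of each of the 10 genes in CPM (log axis) in the 4 groups, F for female, M for male, veh for vehicle and rapa for rapamycin, with 1 point per library and a bar at the group median. The diamond, male vehicle 4, is the highest point in all 10 panels, 3.48 to 10.4 times the next library, and the remaining points of the 4 groups overlap.

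On the length-scaled level the 10 genes were ordered, by their median over the 16 libraries, as Ttr (74.5 RPKM), Clic6 (1.02), Kl (0.836), Aqp1 (0.370), Otx2 (0.320), Folr1 (0.308), Mfrp (0.169), Cldn2 (0.131), Slc4a5 (0.119) and Tmem72 (0.0268). Ttr lay above Clic6 in each group, with lowest levels of 4.49 RPKM for Ttr and highest levels of 1.75 RPKM for Clic6 outside male vehicle 4. By their ranges outside male vehicle 4, Clic6 and Kl also lay above Tmem72. Their lowest levels were 0.304 and 0.235 RPKM, and the highest level of Tmem72 was 0.178 RPKM. Clic6 and Kl were above Tmem72 in male vehicle 4 as well. The other pairs without Ttr overlapped in range outside male vehicle 4 and were not ordered. The SD over the 16 libraries exceeded the mean for each gene. Examples are 3.05 against 1.74 RPKM for Clic6 and 1.86 against 0.859 RPKM for Aqp1 (n = 16). Without male vehicle 4 the SD of Clic6 was 0.510 RPKM against a mean of 0.990 RPKM.

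All 10 genes were highest in male vehicle 4. Over the next library the excess was 3.48 times for Otx2, 5.26 for Folr1, 5.92 for Ttr, 6.81 for Kl, 7.46 for Clic6, 7.59 for Cldn2, 9.05 for Aqp1, 9.48 for Slc4a5, 10.1 for Tmem72 and 10.4 for Mfrp. The next library was female vehicle 2 for 9 genes and male vehicle 2 for Cldn2. Male vehicle 4 alone held 56.7% of the summed level of the 10 genes over all 16 libraries and 69.6% of that over the 8 vehicle libraries. Even there, the 10 genes took only 36179 read pairs, 0.206% of the library.

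Such an excess was rare among all genes. Of the 16553 genes tested, 14 were more than 5 times higher in male vehicle 4 than in the next library. They were 9 of the 10 (all but Otx2), and the choroid plexus genes F5 (a coagulation factor) and Kcne2 (a potassium channel subunit). The other genes were Prr32, Wdr86 and Drc7, which were named after their values were seen. The 10 genes were selected on their levels in these libraries, and the list with F5 and Kcne2 was made with earlier results known. Their number among the 14 follows in part from this and is only a description. Male vehicle 4 was the highest library for 7.42% of the genes tested, while over the 16 libraries this share ran from 2.28% to 15.7%.

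Below male vehicle 4 the libraries kept a loose order. Female vehicle 2 had the highest mean rank over the 10 genes among the other 15 libraries (14.9 of 16), followed by the library labelled male rapamycin 4 (12.8), male vehicle 3 (11.8), male vehicle 2 (11.3) and female vehicle 1 (11). The lowest mean ranks were those of male rapamycin 2 (3), male vehicle 1 (3.8), female vehicle 4 (3.9) and male rapamycin 3 (4.2). High and low libraries were thus found under both diets. Once male vehicle 4 was set aside, the summed levels ran from 14.8 to 332 CPM with vehicle and from 25.0 to 193 CPM with rapamycin. Of the 8 rapamycin libraries, 1 then had a summed level above the vehicle median of 138 CPM, the library labelled male rapamycin 4. By gene, this number ran from 1, as for Ttr and Mfrp, to 5 for Tmem72.

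Next, the co-variation of the 10 genes was measured as the Pearson correlation of log2 CPM over the libraries for each of their 45 pairs. Over the 16 libraries the median r was 0.859, from 0.682 for Otx2 and Mfrp to 0.940 for Clic6 and Tmem72, and 35 of the 45 pairs were above 0.8. Among all pairs of tested genes the median r was -0.0005 and 1.37% of pairs were above 0.8. By Spearman's rho, which ranks the libraries, the median was 0.726. A single principal component carried 86.2% of the variance of the 10 standardized genes.

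Without male vehicle 4 the co-variation was lower, and its median r lay above that of all tested gene pairs. The genes were selected on their levels in these libraries, so this co-variation may follow from the selection and is only a description. The median r over 15 libraries was 0.663, from 0.344 for Folr1 and Mfrp to 0.873 for Ttr and Clic6, with 7 of 45 pairs above 0.8, against a median of -0.0009 and 1.28% of pairs for all tested genes. The median rho was 0.668, and the leading component carried 70.1% of the variance. Without both male vehicle 4 and female vehicle 2, the 2 libraries farthest from the median, the median r was 0.584 and 4 of 45 pairs were above 0.8, so the number of close pairs rests on these libraries. Within the 11 libraries of batch 1 the median r was 0.701, with 12 of 45 pairs above 0.8, and batch 2, with 5 libraries, was too small for such a value. Residuals from sex, batch and diet gave a median r of 0.864 with all libraries and 0.740 without male vehicle 4, so the genes also moved together within groups. The points share depth and library preparation, and no p-value is attached to these correlations.

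**Figure D2:**
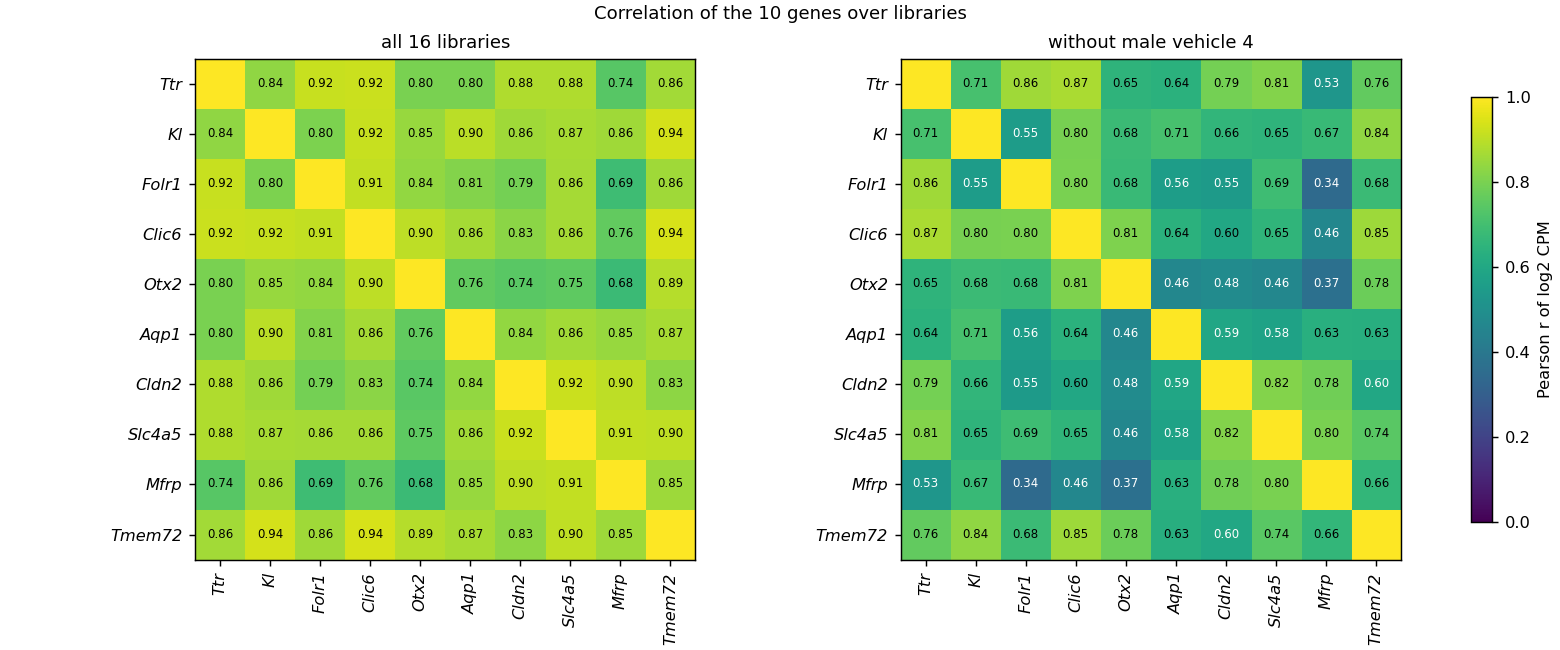
Pearson r of log2 CPM for each pair of the 10 genes (colour scale and printed values), over all 16 libraries on the left and without male vehicle 4 on the right. On the left 35 of 45 pairs exceed 0.8, and on the right 7 do, where the 6 pairs under 0.5 lie in the rows and columns of Otx2 and Mfrp.

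The genes differed in how closely they followed the rest. When male vehicle 4 was left out, the correlation of a gene with the mean of the other 9 was highest for Ttr (0.888), Tmem72 (0.876) and Clic6 (0.868) and lowest for Mfrp (0.688), Otx2 (0.705) and Aqp1 (0.714). With all 16 libraries the same correlation ran from 0.857 for Otx2 to 0.954 for Tmem72. Without it, the 7 pairs above 0.8 were Ttr with Clic6 (0.87), Folr1 (0.86) and Slc4a5 (0.81), Tmem72 with Clic6 (0.85) and Kl (0.84), Cldn2 with Slc4a5 (0.82) and Clic6 with Otx2 (0.81). The 6 pairs under 0.5 all held Otx2 or Mfrp, namely Mfrp with Folr1 (0.34), Otx2 (0.37) and Clic6 (0.46) and Otx2 with Aqp1 (0.46), Slc4a5 (0.46) and Cldn2 (0.48).

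The proportions among the genes were not constant. Ttr took 36.8% of the read pairs of the 10 genes in female vehicle 4 and 89.3% in female rapamycin 2, with 85.8% in male vehicle 4. Per 1000 Ttr read pairs there were 33.4 to 901 Kl read pairs, 23.3 to 275 Clic6 read pairs and 5.22 to 165 Otx2 read pairs, and the highest ratios were those of female vehicle 4, the library with the least Ttr. In male vehicle 4 the ratios were 55.7 for Kl, 29.4 for Clic6 and 5.44 for Otx2. A gene that kept a fixed ratio to Ttr would have a slope of 1 on log2 axes. The slopes of the other 9 genes on Ttr ran from 0.46 for Otx2 to 0.79 for Tmem72 with all libraries and from 0.29 for Aqp1 to 0.59 for Folr1 without male vehicle 4. Scatter and the prior count of 2 also lower such slopes, so they do not measure the range of a gene. The ratio of the highest to the lowest CPM was 317 for Ttr and 551 for Mfrp with all libraries, and 53.6 and 53.2 without male vehicle 4.

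**Figure D3:**
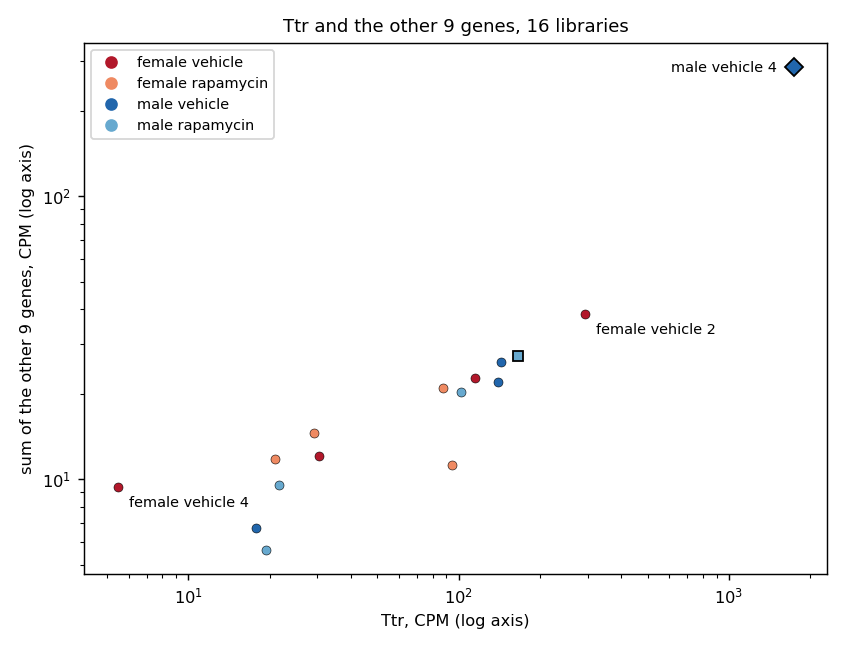
Ttr (horizontal, CPM, log axis) against the sum of the other 9 genes (vertical, CPM, log axis), with 1 point per library coloured by group, a diamond for male vehicle 4 and a square for the library labelled male rapamycin 4. Ttr spans 5.47 to 1736 CPM and the sum of the other 9 genes 5.63 to 287 CPM, and the libraries rise along a band that male vehicle 4 extends at the top right.

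The diet contrast asks how the cortical transcriptome of rapamycin-fed 5xFAD mice differs from that of vehicle-fed mice, with sex and batch as terms. It was used to choose the 10 genes, so nothing is read from their number of calls. With all 16 libraries, all 10 had negative log2 fold changes (rapamycin against vehicle), with a median of -1.77 beside 0.02 for all tested genes, and 5 of 10 were called lower (adjusted p under 0.05 in edgeR's quasi-likelihood test and at least 1.5-fold), beside 1.57% of the 16553 genes tested. The values were -3.10 ± 0.67 (SE) for Mfrp, -2.57 ± 0.83 for Tmem72, -2.25 ± 0.63 for Cldn2, -2.11 ± 0.64 for Slc4a5 and -1.73 ± 0.52 for Aqp1, which were the 5 called. Those not called were -1.82 ± 0.76 for Ttr, -1.73 ± 0.72 for Folr1, -1.32 ± 0.46 for Kl, -1.14 ± 0.52 for Otx2 and -0.94 ± 0.54 for Clic6.

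Without male vehicle 4, 0 of the 10 were called lower, beside 1.28% of 16813 genes. The same fit at an unadjusted p under 0.05 held 1 of the 10, beside 4658 of all 16813 genes, so this share was not above the background. DESeq2 also called 0 without that library, but it gave an adjusted p for only 3 of the 10 (Ttr, Kl and Clic6), so the other 7 could not be called, and 2 of the 10 had an unadjusted p under 0.05. The largest remaining value was -2.02 ± 0.70 for Mfrp, followed by -1.25 ± 0.63 for Cldn2 and -0.86 ± 0.56 for Slc4a5. Tmem72 was at -0.77 ± 0.76, Ttr at -0.71 ± 0.81, Aqp1 at -0.64 ± 0.44, Kl at -0.49 ± 0.38, Folr1 at -0.33 ± 0.64 and Otx2 at -0.30 ± 0.44. Clic6 turned to 0.06 ± 0.44. Thus 9 of 10 kept a negative value, and the median was -0.68 beside 0.01 for all tested genes.

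The calls of the full set also depended on other libraries, and here too nothing is read from their number. The calls numbered 1 when female vehicle 2, male rapamycin 2 or the library labelled male rapamycin 4 was left out. They numbered 2 on leaving out any of female vehicle 1, female rapamycin 1 and female rapamycin 5, and 3 on leaving out female vehicle 3, male rapamycin 3 or female rapamycin 2. They numbered 4 or 6 when any of the remaining 6 libraries other than male vehicle 4 was left out. With no batch term 0 of 10 were called. Within batch 1, which does not hold male vehicle 4, 0 of 10 were called, and the values ran from -2.49 ± 0.81 for Mfrp to -0.25 ± 0.43 for Clic6, farther below 0 for each of the 10 genes than in the fit of both batches without male vehicle 4.

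**Figure D4:**
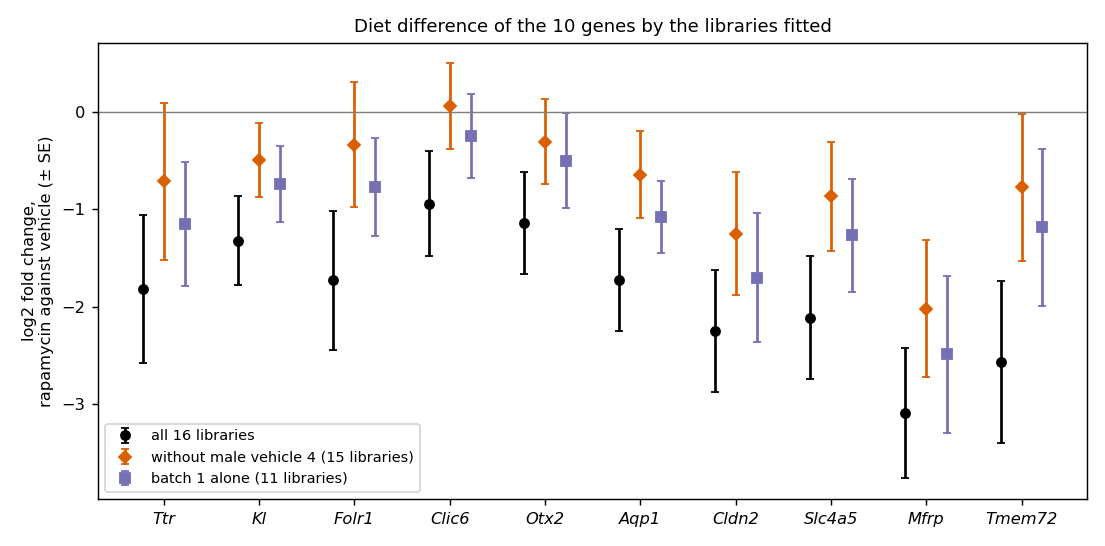
Log2 fold change of each gene, rapamycin against vehicle, with its SE as the bar, from the fit of all 16 libraries (black circles), the fit without male vehicle 4 (orange diamonds) and the fit of batch 1 alone (purple squares). The black circles run from -3.10 to -0.94, and the orange diamonds lie nearer 0 for all 10 genes, from -2.02 to 0.06.

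On the linear scale, the summed level of the 10 genes was 363 ± 679 CPM (SD, n = 8) with vehicle and 82.7 ± 59.6 CPM (n = 8) with rapamycin, a ratio of 0.228. Leaving out male vehicle 4, the vehicle mean was 126 ± 112 CPM (n = 7) and the ratio 0.656, a difference smaller than either SD. Medians moved less than means, with a ratio of medians of 0.498 with all libraries and 0.542 without male vehicle 4. In females the ratio of means was 0.552 and that of medians 0.830, and without female vehicle 2 the ratio of means was 1.12. In males the ratio of means was 0.156 with male vehicle 4 and 0.781 without it, where the ratio of medians was 0.473. With the library labelled male rapamycin 4 left out as well, the means of males were 59.4 CPM with rapamycin and 119 CPM with vehicle (3 libraries each). The direction of the summed level in females thus rests on female vehicle 2. That level is mostly Ttr, with a mean of 111 of 132 CPM in female vehicle libraries. The sum without Ttr had a ratio of means of 0.710 in females, and it was not taken without female vehicle 2. With all libraries its ratio was 0.287, and without male vehicle 4 it was 0.774. For all 10 genes, in batch 1 the ratio was 0.453 (6 vehicle and 5 rapamycin libraries). In batch 2 it was 0.109, where the 2 vehicle libraries were the lowest and the highest of the series, 14.8 and 2023 CPM. By gene, the ratio of means without male vehicle 4 ran from 0.364 for Mfrp and 0.494 for Cldn2 to 0.776 for Kl and 1.06 for Clic6.

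The other terms of the design were also followed. For females against males, 0 of the 10 were called, beside 0.0302% of all genes with all libraries and 0.0357% without male vehicle 4. At an unadjusted p under 0.05, 2 of the 10 passed with all libraries, beside 992 of 16553 genes. Without male vehicle 4, 0 of the 10 passed, beside 1209 of 16813 genes. DESeq2 called 0 in each case, with no adjusted p for Tmem72 without male vehicle 4. The median log2 fold change was -0.73 with all libraries and -0.06 without male vehicle 4, where the lowest adjusted p by edgeR was 0.749. For the interaction of sex and diet, 0 of the 10 were called beside 0% of all genes, with and without male vehicle 4, by edgeR and by DESeq2, and 0 of the 10 had an unadjusted p under 0.05. Over all genes, 360 had an unadjusted p under 0.05 in edgeR and 399 in DESeq2. The values had SEs of 0.99 to 2.03 on the log2 scale with all libraries. At this precision a difference between the sexes in the diet effect was not detectable. These fits held the library labelled male rapamycin 4 as male, although its read pairs went against that label. With it left out, alone or with male vehicle 4, edgeR called 0 of the 10 for sex and 0 for the interaction.

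For batch 2 against batch 1, 7 of the 10 were called higher with all libraries (Kl, Clic6, Aqp1, Cldn2, Slc4a5, Mfrp and Tmem72), beside 10.7% of all genes, with a median of 1.83. Male vehicle 4 is 1 of the 5 libraries of batch 2. Without it 0 of the 10 were called in edgeR's test, beside 9.77% of all genes. In that test 0 of the 10 had an unadjusted p under 0.05, beside 6768 of 16813 genes. DESeq2 called 0 of the 9 with an adjusted p (all but Tmem72). By edgeR the median was 0.33 and the lowest adjusted p was 0.325. Calls of the 10 genes for batch were thus present only with male vehicle 4 among the fits run. Without it their log2 fold changes ran from -0.18 to 1.07, with 2 of the 10 negative.

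The spread of the 10 genes was large for this data set. Biological coefficients of variation measure the spread between libraries beyond counting error, here around the fit with sex, batch and diet. For the 10 genes their median was 0.765, against 0.164 over all tested genes. Each of the 10 values lay above those of 98.6% to 99.9% of the genes tested. The genes were selected on their levels in these libraries, so this high spread may follow from the selection and is only a description. It comes from the fit of all libraries and was not taken with any library left out.

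Next, 38 further genes of choroid plexus epithelium, listed by textbook knowledge with earlier results of these data known, were followed in the same way, of which 34 could be tested. Of the 38, 33 were highest in male vehicle 4. Their summed level was 2182.4 CPM there and 538 to 884 CPM in the other 15 libraries. This was 3.16 times the median of the other libraries, against 19.1 times for the 10 genes. Some genes of the list are also made by other cells of the cortex. The 5 with the highest mean length-scaled levels were Enpp2 (autotaxin, also made by oligodendrocytes, 80.9 RPKM), Igfbp2 (an IGF-binding protein, 20.1), Slc12a2 (the sodium, potassium and chloride cotransporter NKCC1, 13.6), Igf2 (a growth factor, 11.6) and Cab39l (11.1). Enpp2 was 1020 CPM in male vehicle 4 and 132 to 359 CPM elsewhere, while Slc12a2 was 112 CPM in male vehicle 4 and 112 CPM in female rapamycin 4.

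In the diet contrast, 4 of the 34 were called lower with all libraries, beside 1.57% of all genes, and 0 higher, with a median of -0.51. They were Sostdc1, a secreted antagonist of BMP and Wnt signalling (-1.89 ± 0.49), F5 (-1.68 ± 0.54), Kcnj13, an inwardly rectifying potassium channel (-1.52 ± 0.46), and Trpm3, a cation channel (-1.01 ± 0.22). Leaving out male vehicle 4, 1 of the 34 was called, beside 1.28% of all genes, so this share was near the background. It was Trpm3 at -0.94 ± 0.24, and the median of the list was -0.15. Trpm3 correlated with the mean of the 10 genes at r = 0.11 over those 15 libraries, whereas F5 did so at 0.95 and Sostdc1 at 0.87.

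In the batch contrast, 16 of the 34 were called higher in batch 2 with all libraries, beside 10.7% of all genes. They were Enpp2, Prlr, Kcnj13, Trpv4, Trpm3, Slc13a4, Slc4a2, Slc2a12, Calml4, Msx1, Ace, Col9a3, Igf2, F5, Rdh5 and Abca4, with log2 fold changes of 0.63 (Slc4a2) to 1.91 (F5). Without male vehicle 4, 5 of the 34 were called, a share near the 9.77% of all genes. They were Trpm3 (1.51), Slc13a4 (1.30), Abca4 (0.91), Igf2 (0.90) and Rdh5 (0.88), while the list median fell from 0.96 to 0.14.

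The genes whose pattern was most like that of the 10 were sought among the genes with a mean of at least 1 CPM. Likeness was the Pearson r of log2 CPM with the mean of the standardized log2 CPM of the 10 genes. Over 16 libraries the 10 most alike were F5 (0.975), 1500015O10Rik (0.948), Drc7 (0.939), Sostdc1 (0.921), Calml4 (0.905), Col8a2 (0.893), Kcne2 (0.888), Enpp2 (0.877), Slc16a8 (0.877) and Lbp (0.865), of which 7 are in the list of 38. Without male vehicle 4 they were F5 (0.945), 1500015O10Rik (0.914), Sostdc1 (0.873), Drc7 (0.836), Ext2 (0.826), Trim30d (0.819), Col8a2 (0.817), Tfb2m (0.796), Alg1 (0.787) and Hexa (0.785), of which 3 are in the list. The 2 sets shared 5 genes. The median r over all tested genes was 0.02 in each case, and over the 34 genes of the list it was 0.701 with all libraries and 0.456 without male vehicle 4. Other lists were as close in the second case. The median r was 0.457 for 7 ependymal genes, 0.408 for 11 leptomeningeal and 0.381 for 6 hippocampal genes without male vehicle 4, and 0.352, 0.372 and 0.200 with all libraries. For 5 red blood cell genes it was -0.477 and -0.564, respectively.

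Markers of neighbouring tissues were set beside these values, and their part in the result was not tested. Ependyma, the ciliated lining of the ventricles (8 genes), summed to 23.2 CPM in male vehicle 4, the highest but 3, and to 6.96 to 28.1 CPM in the others. Its genes Ccdc153, Tmem212 and Mia were at 0 in some libraries. Plvap, a marker of fenestrated capillaries such as those of the choroid plexus, was 11.7 CPM in male vehicle 4 and 4.90 to 15.1 CPM elsewhere. Neither had male vehicle 4 as its highest library.

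Leptomeningeal genes (11) summed to 144 CPM in male vehicle 4 and 60.6 to 251 CPM elsewhere, and brain endothelial genes (7) to 266 and 218 to 347 CPM. Red blood cell genes (5, with Hba-a2 at 0 in some libraries) were lowest in male vehicle 4, at 1.68 CPM against 1.91 to 32.2 CPM. For the regions next to the ventricle, hippocampal markers (7, with Iyd at 0 in some libraries) summed to 38.5 CPM in male vehicle 4 and 30.2 to 75.1 CPM elsewhere, striatal markers (8) to 231 and 140 to 385 CPM, and thalamic markers (7) to 73.8 and 82.0 to 150 CPM. Of these lists only the choroid plexus lists had male vehicle 4 as their highest library.

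**Figure D5:**
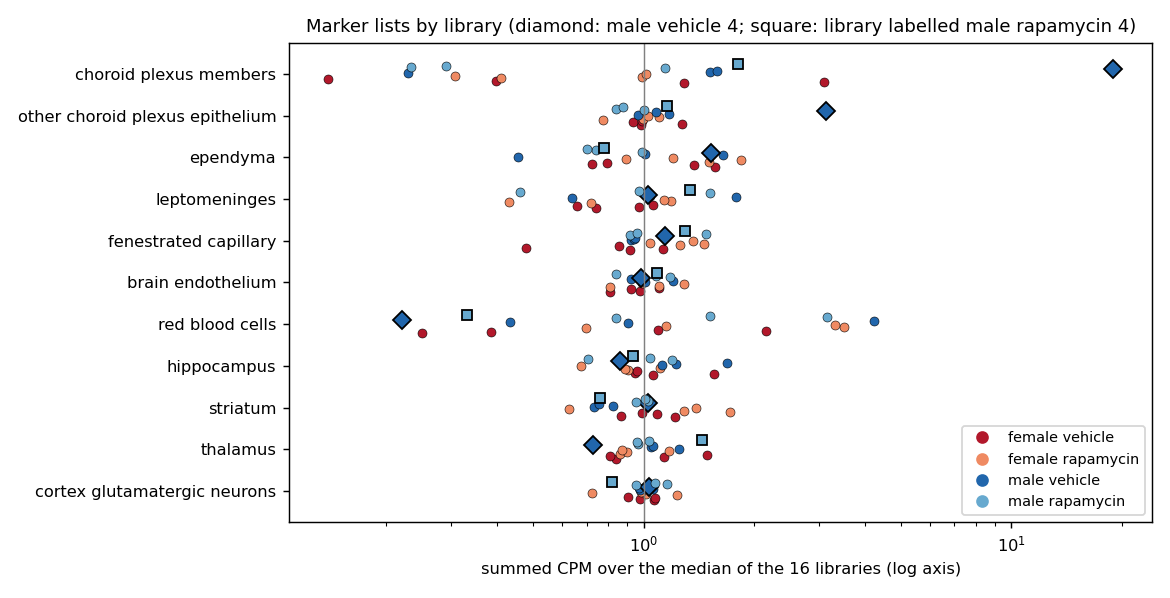
Summed CPM of 11 marker lists in each library, divided by the median of the 16 libraries (log axis), with 1 point per library coloured by group, a diamond for male vehicle 4 and a square for the library labelled male rapamycin 4. The diamond lies far to the right for the 10 choroid plexus genes and the list of 38, and within or below the range of the other points for the other lists.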

How the data were processed

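For 16 libraries the authors deposited a table of raw read pair counts by gene and the same counts in 1 table per group, which were not used. Poly(A) RNA had been sequenced as paired-end reads. Per the study's methods and the submitters' processing notes, the authors used FastQC 0.11.9, Trimmomatic 0.39, HISAT2 2.2.1 (GRCm38) and featureCounts 2.0.3 on exons by gene name, without strand, so alignment and counting choices are theirs.

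Here counts were scaled with TMM factors, and filterByExpr at a minimum count of 10 kept 16553 genes, among them all 10 members, with 99.9% of read pairs. The quasi-likelihood test of edgeR 4.0.16 in R 4.3.3 was fitted to all genes with sex, batch and diet, or the 4 groups and batch for the interaction, with Benjamini-Hochberg adjustment over all genes. Genes were called at a fold change of 1.5 or more with an adjusted p under 0.05. DESeq2 1.42.0 was an alternative. Log2 CPM used a prior count of 2. Depth was 16393501 to 20593089 read pairs, and the common coefficient of variation was 0.186. Tested on simulated counts with 200 of 16553 genes changed by 2 on the log2 scale, the diet test recovered 197 with 5 false calls.

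The members and all lists were chosen with earlier results of these data known. Named genes are the 10 members, the 5 genes of the further choroid plexus list with the highest mean RPKM and every gene of it called with all libraries or without male vehicle 4, and the 10 genes most like the members with and without male vehicle 4. Figures were drawn with Python 3.11.15 and matplotlib 3.10.9.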

Additional observations from a re-analysis of the deposited data

Results flagged for a closer look

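In 40 groups of 4 libraries (10 genes in 4 groups), 11 held a highest library set apart from the rest of its group, by a gap to its neighbour that exceeded Dixon's limit for 4 samples. For normally distributed values the limit is passed at either end in about 1 in 20 groups. CPM values need not be so distributed, and some rest on few read pairs. These genes were also selected on their levels in these libraries, and the same libraries recur. The number of male vehicle 4 values set apart thus follows from the selection and is only a description. Of the 11, 9 were male vehicle 4 among the male vehicle libraries, at 1736 CPM for Ttr, 96.7 CPM for Kl, 15.8 CPM for Folr1, 51.1 CPM for Clic6, 20.5 CPM for Aqp1, 11.02 CPM for Cldn2, 23.6 CPM for Slc4a5, 28.1 CPM for Mfrp and 30.9 CPM for Tmem72. Otx2 did not pass this limit. Over all 16553 tested genes, 669 (4.04%) passed it in the male vehicle group through a high male vehicle 4. Slc4a5 was set apart in the library labelled male rapamycin 4 at 1.49 CPM, and Tmem72 in female vehicle 2 at 3.05 CPM.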

How the results depend on the processing

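Of the 10 genes, 5 were called lower with rapamycin, beside 1.57% of the 16553 genes tested, and nothing is read from this number. DESeq2 called 3 and gave no adjusted p for Cldn2, the fit without a filter on low counts 10, the fit with no batch term 0, batch 1 alone 0, the fit without 2 libraries, male vehicle 4 and that labelled male rapamycin 4, gave 0, and leaving out each library in turn gave 0 to 6. DESeq2 without male vehicle 4, chosen after seeing the data, called 0 of the 3 genes to which it gave an adjusted p. With a replicate block in place of batch 2 were called, Cldn2 and Mfrp, while adjusted p by edgeR was 0.0694 for Aqp1, 0.0708 for Slc4a5 and 0.117 for Tmem72. The libraries were not treated as paired, since the labels tie numbers only through batch (4 and 5 are batch 2) and the deviations of 3 of 21 same-numbered pairs were not correlated above 0.1 (r from -0.157 to 0.675). The other 18 were, and 12 of 15 libraries were closest to one of their own number, a hint of pairing from the data and not the design. The block gave 0 calls for sex and for the interaction, as did the fits without it. Without the filter 2 genes were called for sex and 1 for the interaction. For batch, 0 of 10 were called without those 2 libraries and by DESeq2 without male vehicle 4 (no adjusted p for Tmem72), and leaving out each library in turn gave 0 to 9. The log2 fold change of Clic6 changed sign without male vehicle 4 (0.0636 by edgeR and 0.0590 by DESeq2) and without those 2 libraries (0.0375), and leaving out each library in turn gave -1.21 to 0.06. The median correlation of 0.859 was 0.726 by Spearman, 0.701 in batch 1, 0.584 without the 2 farthest libraries, 0.651 without male vehicle 4 and that labelled male rapamycin 4, and 0.663 to 0.876 leaving out each library in turn. Without male vehicle 4 it was 0.668 by Spearman and 0.740 for residuals, both chosen after seeing the data. The summed level with rapamycin over vehicle, 0.228, was 0.453 in batch 1 and 0.184 to 0.656 leaving out each library in turn. Apart from the fits that leave out libraries, the cause of these changes was not tested. RLE factors changed none of these counts of calls. Depth limits Cldn2 and Tmem72 most, each with fewer than 10 read pairs in 8 of 16 libraries.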
